A study of Mus musculus with 8 samples.

Results

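The ErbB family of receptor tyrosine kinases and the EGF-family ligands that bind it were followed through the loss of Sox9 in the early mouse pancreas. The set holds 10 genes: the 4 receptors Egfr, Erbb2, Erbb3 and Erbb4, and the ligands Egf, Areg, Btc, Hbegf, Nrg1 and Tgfa. They were chosen by name, as every non-control probe of a whole-genome Agilent array that carries one of these symbols. This gave 28 of the 41174 probes on the array and 10 of its 27828 gene names. Of the 28 probes, 17 were well above background on 4 or more of the 8 arrays, and through them 8 of the 10 genes entered the 18506 genes tested.

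The arrays held Cy3-labelled RNA from microdissected dorsal pancreatic epithelia of embryos at e12.5. The mutant group (Sox9fl/fl; Pdx1-Cre, n = 4) carried floxed Sox9 alleles and a Cre transgene driven by the promoter of Pdx1, a transcription factor of pancreatic progenitors, while the wild-type group (Sox9fl/fl, n = 4) were littermates that carried these floxed alleles without Cre. The Sox9-flox line had a mixed FVB/N x C57Bl/6J background and the Pdx1-Cre line a C57Bl/6J background. Each RNA came from the dorsal pancreata of 3 embryos, about 250 ng was labelled, and each pool had an array of its own. The series text speaks of 3 biological replicates although there were 4 arrays a genotype, so p-values measure the spread between these arrays. Genotype and the presence of Cre cannot be told apart.

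ErbB receptors work in pairs. A ligand released from its membrane-bound precursor by a protease binds the outer part of a receptor, the receptor pairs with another member of the family, and the kinase domains inside the cell then pass the signal to the Ras and Erk cascade and to phosphoinositide 3-kinase. Erbb2 has no ligand of its own and Erbb3 has hardly any kinase activity, so each depends on a partner. Egf, Areg, Btc, Hbegf and Tgfa bind Egfr, with Btc and Hbegf also binding Erbb4, and the neuregulin Nrg1 binds Erbb3 and Erbb4. In the developing pancreas EGF-family signals are known for roles in growth and in the formation of endocrine cells, and Erbb3 is also a receptor of neural crest cells and Schwann cell precursors.

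The array tells the receptors apart by 60-base probes, shown here because the family shares much of its kinase-coding sequence and because the Erbb3 and Erbb4 results rest on single probes. The first 3 probes below read the same stretch of the kinase-coding sequence in Erbb2, Erbb3 and Erbb4, and capitals mark the bases that all 3 share in an alignment without gaps. All are written 5′ to 3′ as in the scanner files, whose positions are on mouse assembly mm8.
Erbb2 A_51_P216179: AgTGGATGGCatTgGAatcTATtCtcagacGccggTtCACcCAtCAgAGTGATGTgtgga
Erbb3 A_51_P342050: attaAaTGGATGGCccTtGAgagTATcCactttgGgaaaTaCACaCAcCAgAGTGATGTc
Erbb4 A_51_P396034: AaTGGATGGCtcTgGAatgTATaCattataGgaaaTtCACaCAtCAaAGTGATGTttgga
They lie at chr11:98250600-98250659 on the plus strand, chr10:127975088-127975147 on the minus strand and chr1:68011750-68011809 on the minus strand. Of the 56 positions that all 3 probes cover, 33 (58.9%) held the same base. In pairs, the Erbb2 and Erbb3 probes matched at 35 of 56 bases (62.5%), Erbb2 and Erbb4 at 42 of 60, and Erbb3 and Erbb4 at 44 of 56 (78.6%). The Erbb2 probe was well above background on all 8 arrays, the Erbb3 probe on 0 of 4 mutant and 2 of 4 wild-type arrays, and the Erbb4 probe on 0 of 8.

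The values of Erbb3 and Erbb4 come from the next 3 probes, in lower case throughout. The first represents Erbb3 in the gene-level test, the second is the other Erbb3 probe that could be tested, and the third is the only Erbb4 probe above background.
Erbb3 A_52_P432949: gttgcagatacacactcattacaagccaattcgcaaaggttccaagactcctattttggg
Erbb3 A_51_P414813: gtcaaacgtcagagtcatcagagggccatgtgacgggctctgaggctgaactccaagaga
Erbb4 A_51_P283698: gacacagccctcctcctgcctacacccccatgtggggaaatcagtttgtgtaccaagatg
The Erbb3 probes lie at chr10:127970642-127970701 and chr10:127973174-127973233 on the minus strand, so that A_52_P432949 is nearest the 3′ side of the 5 Erbb3 probes. Its accession in the file, XM_972868, had no match in the RefSeq gene table used here, so its Erbb3 name is the array's own. The Erbb4 probe is listed over 1229 bases, chr1:67975925-67977153 on the minus strand, which is longer than its 60 bases.

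Signals are given as log2 processed signal minus the 75th percentile of the same array, so that 0 is that percentile, and they compare arrays for 1 probe, never 1 probe with another. The 75th percentile of the processed signal ran from 413 to 624 on the mutant arrays and from 372 to 640 on the wild-type arrays, and 59.4% to 75.3% of spots on mutant arrays and 62.4% to 77.7% on wild-type arrays were well above background. Sox9 averaged -0.41 ± 1.08 in mutant and 2.29 ± 0.51 in wild-type arrays (SD, n = 4 each), 6.49-fold lower in mutants (log2 difference -2.70, SE 0.517, limma adjusted p = 0.0252). Whether its probe lies in the deleted part was not examined. Its call was lost without mutant replicate 1 or wild-type replicate 1, 2 or 4 (adjusted p 0.0524 to 0.0732) and with no filter on dim probes (0.0603). Of the 18506 genes tested, 994 (5.37%) passed an adjusted p of 0.05, 287 (1.55%) higher and 707 (3.82%) lower in mutants, and the median log2 difference was 0.016.

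Of the 8 members tested, Erbb3 alone passed the threshold. Its signal was 5.14-fold lower on the Sox9 mutant arrays than on the wild-type arrays. The other 3 receptors had log2 differences between 0.28 and 0.56 and the 4 ligands between -0.66 and 0.16, and none of these 7 passed the adjusted threshold. Egfr was the only one of the 7 whose groups did not overlap, against 15.2% of all genes tested, and the only one with an unadjusted limma p under 0.05, a level reached by 18.8% of all genes.

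**Figure D1:**
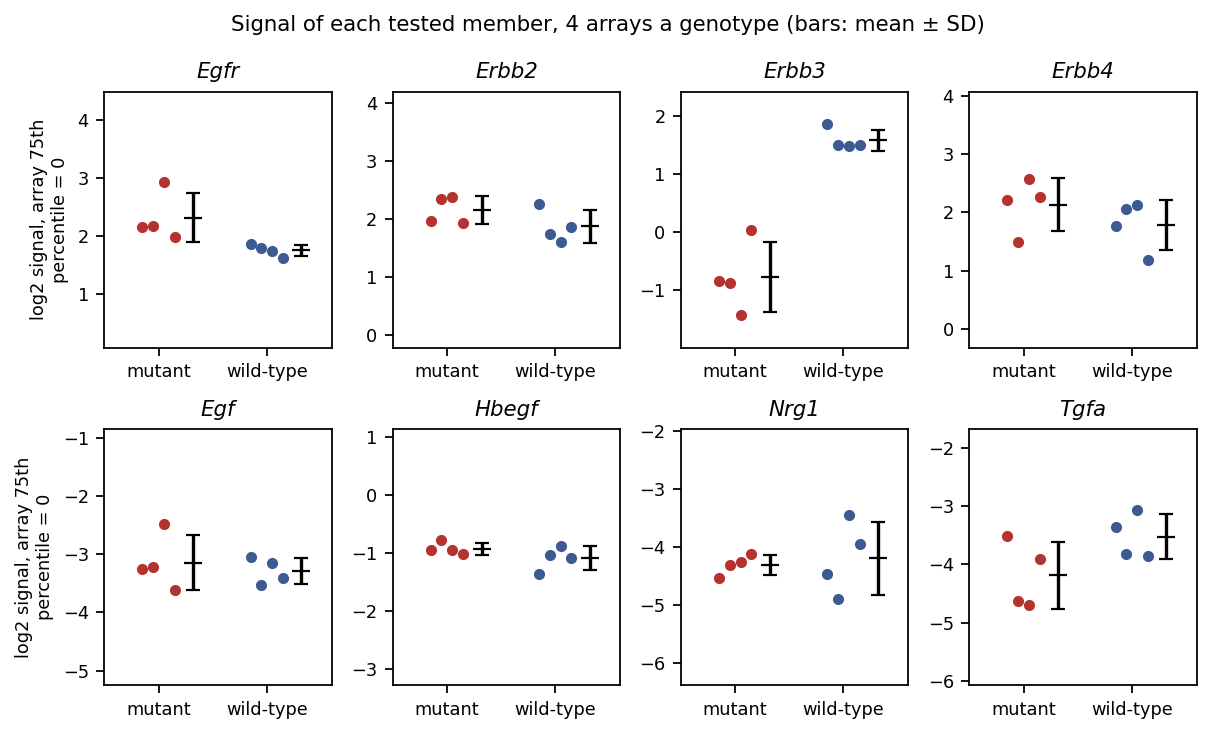
Log2 signal (array 75th percentile = 0) of the 8 members tested, 1 point an array, with mean ± SD bars beside each group of 4 arrays; every panel spans the same number of log2 units. The Erbb3 points of the mutants lie at 0.03 or below and those of the wild-type arrays at 1.47 or above, and the Egfr groups are apart by a small gap.

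Erbb3 binds neuregulins and signals mainly through the partner it pairs with. Its processed signal was 344, 283, 153 and 635 in mutant replicates 1 to 4, against 1344, 1753, 1459 and 1811 in wild-type replicates 1 to 4. On the log2 scale the mutant arrays had -0.84, -0.89, -1.43 and 0.03 and the wild-type arrays 1.85, 1.5, 1.47 and 1.5. Every mutant array was below every wild-type array, as was so of 7.99% of all genes tested; mutant replicate 3 was lowest and mutant replicate 4 came nearest to the wild type. The log2 difference was -2.36 (SE 0.281, 95% interval -3.01 to -1.72, limma adjusted p = 0.00805), and the two-sided exact permutation p was 0.0286, the smallest that 70 assignments of 4 against 4 arrays allow. Within the 3 slides the difference was -2.93, -1.88 and -2.56. The call was lost in 1 alternative, added after the data were seen, which left out the array with the most detected spots in each group (mutant replicate 1 and wild-type replicate 3; log2 difference -2.38, adjusted p = 0.0736). Without any single array it passed in 8 of 8 fits, with differences from -2.63 to -2.15.

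The other 4 Erbb3 probes were dim. The probe A_51_P414813 had -4.58, -5.76, -6.55 and -5.70 in mutant replicates 1 to 4 and -3.16, -4.26, -2.97 and -3.86 in wild-type replicates 1 to 4, and it was well above background on 1 of 4 mutant and 4 of 4 wild-type arrays. The groups did not overlap, and the log2 difference was -2.08 (95% interval -3.09 to -1.08, limma adjusted p over the 27389 probes = 0.0407). The probe met the filter through the wild-type arrays, where it was higher, and most of its mutant values were near background. Its difference and p-value are therefore no separate support for the Erbb3 difference. Of all probes tested 3.75% passed in either direction, 2.88% passed on the lower side, and 7.37% were lower in mutants with no overlap against 13.4% with no overlap in either direction. That call was lost without any one of mutant replicates 2, 3 and 4 and wild-type replicates 1, 3 and 4 (adjusted p 0.0772 to 0.115). With another background correction, normexp, or in the authors' value table the difference shrank to -0.47 in each, and with array weights to -1.30, and none of the 3 passed (adjusted p = 0.251, 0.0523 and 0.0993). It did not pass with no filter either (adjusted p = 0.0963). The kinase-region probe A_51_P342050 was not well above background on any mutant array and was on 2 wild-type arrays, and its groups overlapped (-7.28 to -5.46 on mutant and -5.48 to -3.50 on wild-type arrays). The probe A_51_P488243, which repeats 40 bases of the preceding one, was above background on 1 array a genotype, and A_52_P133607 on none.

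Egfr is the receptor of Egf, Tgfa and Areg. The probe that represents it, A_52_P106259 at chr11:16813815-16813874, had 2.16, 2.18, 2.93 and 1.98 in mutant replicates 1 to 4 and 1.86, 1.79, 1.74 and 1.63 in wild-type replicates 1 to 4. All 4 mutant arrays lay above all 4 wild-type arrays, and mutant replicate 3 stood highest. The log2 difference was 0.56, or 1.47-fold (SE 0.204, 95% interval 0.09 to 1.03), which did not pass over all genes (limma adjusted p = 0.174) and reached the smallest exact permutation p of 0.0286. Of all genes tested, 7.24% were higher in mutants with no overlap. Within the slides the difference was 1.14, 0.33 and 0.43, and without mutant replicate 3 it was 0.35.

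Of the 6 Egfr probes 5 could be tested, and they gave log2 differences of 0.38, 0.48, 0.55, 0.56 and 0.59. They read transcripts of 1 gene, under 3 accessions, and are not replicates. In 4 of the 5 the groups did not overlap, and in A_52_P175190 they did; of all probes tested, 6.07% were higher in mutants with no overlap. The lowest adjusted p over all probes was 0.0553, for A_52_P674338, which had -2.41, -2.73, -2.34 and -2.48 in mutant replicates 1 to 4 and -3.14, -2.87, -3.13 and -3.02 in wild-type replicates 1 to 4. That probe passed in 3 of 20 alternatives: when probes had to be detected on all 8 arrays (adjusted p = 0.0408), with array weights (0.0207) and with a random slide block (0.0331). With array weights the probe A_51_P392242 also passed (0.40, adjusted p = 0.0422). The sixth probe, A_52_P5855, was not well above background on any array.

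**Figure D2:**
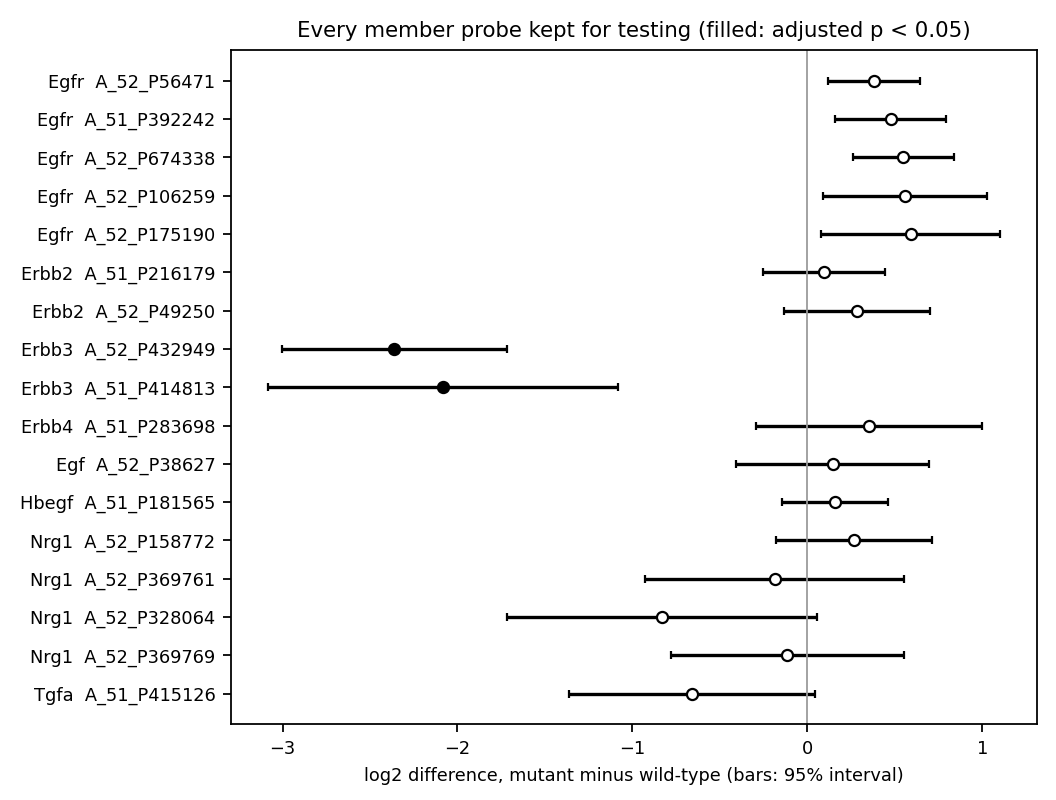
Log2 difference, mutant minus wild-type, of the 17 member probes that could be tested, with 95% intervals from limma; filled points had an adjusted p under 0.05 over all 27389 probes. The 2 Erbb3 probes lie at -2.36 and -2.08, the 5 Egfr probes between 0.38 and 0.59, and the 4 Nrg1 probes on both sides of 0.

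Erbb2, the preferred partner of the other receptors, was read by 2 probes above background on all 8 arrays. Its representing probe A_52_P49250 (chr11:98252879-98252938) had 1.97, 2.34, 2.38 and 1.94 in mutant replicates 1 to 4 and 2.27, 1.75, 1.6 and 1.87 in wild-type replicates 1 to 4. The groups overlapped, and the log2 difference of 0.28 did not pass (95% interval -0.13 to 0.70, limma adjusted p = 0.488). The kinase-region probe A_51_P216179 differed by 0.10 (95% interval -0.25 to 0.44, adjusted p over probes = 0.875).

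Erbb4 is a receptor of both neuregulins and Btc. Its probe A_51_P283698 had 2.21, 1.49, 2.58 and 2.26 in mutant replicates 1 to 4 and 1.77, 2.06, 2.12 and 1.17 in wild-type replicates 1 to 4. The groups overlapped widely, with a log2 difference of 0.35 that did not pass (95% interval -0.29 to 1.0, limma adjusted p = 0.622). The 2 other Erbb4 probes, A_51_P396034 and A_52_P608535, were not well above background on any array, so the Erbb4 level rests on A_51_P283698.

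The receptors were also set against each other within arrays, which compares their changes and not their levels, over 6 pairs. On the log2 scale the within-array difference Egfr minus Erbb3 was 2.92 higher in mutants than in wild type, Erbb2 minus Erbb3 was 2.65 higher, and Erbb3 minus Erbb4 changed by -2.71. In each of these 3 pairs the groups did not overlap (exact permutation p = 0.0286, adjusted over the 6 pairs = 0.0571, the lowest value that 3 pairs at the smallest p can take), so no pair passed the threshold, and all 3 contain the Erbb3 values given above. Egfr minus Erbb2 changed by 0.28 (exact permutation p = 0.2), Egfr minus Erbb4 by 0.21 (p = 0.514) and Erbb2 minus Erbb4 by -0.07 (p = 0.971).

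Of the 4 ligands tested, Tgfa, which binds Egfr, had the largest difference. Its probe A_51_P415126 had -3.51, -4.63, -4.70 and -3.91 in mutant replicates 1 to 4 and -3.36, -3.83, -3.06 and -3.86 in wild-type replicates 1 to 4. It was above background on 3 of 4 mutant and 4 of 4 wild-type arrays and its groups overlapped. The log2 difference was -0.66 (95% interval -1.36 to 0.05, limma adjusted p = 0.303), and it was -0.87, -0.65 and -1.02 within the slides. With slide as a fixed block it was -0.84 and passed (adjusted p = 0.0414), the only one of 20 alternatives in which it did. It was smaller with normexp (-0.23), in the authors' value table (-0.19) and with array weights (-0.15). The second Tgfa probe, A_52_P555423, was above background on 2 mutant and 1 wild-type arrays and was not tested.

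Nrg1, the neuregulin that binds Erbb3 and Erbb4, was read by 5 probes, of which 4 could be tested. The probe A_52_P369769, which was above background on all 8 arrays, had -4.53, -4.32, -4.27 and -4.12 in mutant replicates 1 to 4 and -4.47, -4.90, -3.45 and -3.95 in wild-type replicates 1 to 4. The wild-type values enclosed the mutant ones, and the log2 difference was -0.11 (95% interval -0.78 to 0.55, limma adjusted p = 0.919). The sign of this difference turned without wild-type replicate 3 (0.13). The other 3 tested probes differed by 0.27, -0.19 and -0.83, with adjusted p over probes of 0.336 or more, so the Nrg1 probes gave no common direction.

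Egf and Hbegf, ligands of Egfr, were above background on all 8 arrays and overlapped between the genotypes. Egf (A_52_P38627, the mean of 10 spots) had -3.25, -3.22, -2.48 and -3.62 in mutant replicates 1 to 4 and -3.05, -3.53, -3.16 and -3.41 in wild-type replicates 1 to 4. Its log2 difference was 0.14 (limma adjusted p = 0.861), came to 1.05, -0.28 and 0.02 within the 3 slides, and was -0.08 without mutant replicate 3. Hbegf (A_51_P181565) had -0.95, -0.78, -0.96 and -1.03 in mutant replicates 1 to 4 and -1.37, -1.03, -0.88 and -1.08 in wild-type replicates 1 to 4, a log2 difference of 0.16 (95% interval -0.14 to 0.46, adjusted p = 0.630).

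Areg, which binds Egfr, and Btc, which binds Egfr and Erbb4, were not well above background on any of the 8 arrays, with 1 and 2 probes, and could not be tested. Their processed signals lay between 2.96 and 14.7 on mutant arrays and between 3.07 and 18.6 on wild-type arrays. Areg and Btc belong to a group of 4 EGF-family ligand genes on chromosome 5, whose probes lie within 323972 bases (chr5:92110293-92434264). Their 2 neighbours in that group were detected: Epgn on all 8 arrays and Ereg on 3 of 4 arrays in each genotype, by the better of its 2 probes.

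**Figure D3:**
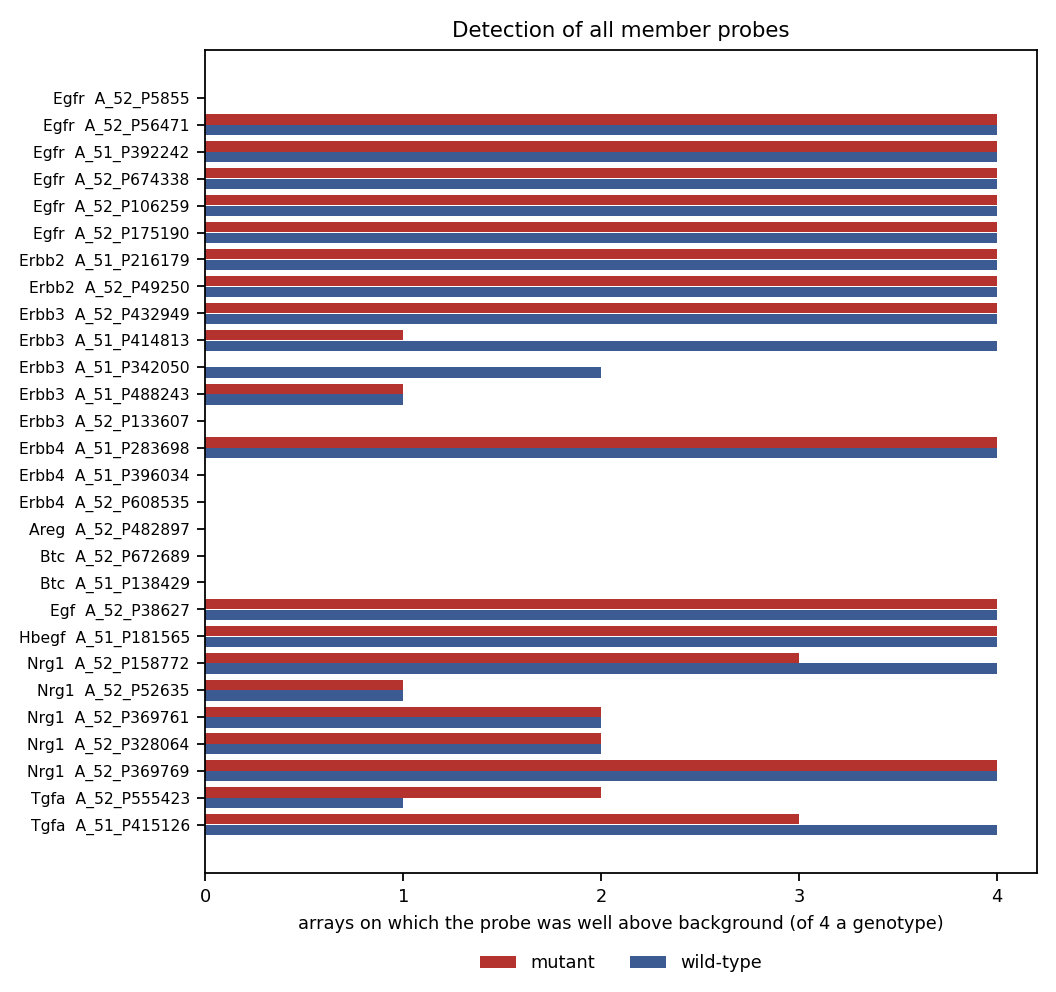
Number of arrays, of 4 a genotype, on which each of the 28 member probes was well above background, with the mutant bar above the wild-type bar; no bar means 0 arrays. Egfr and Erbb2 have several probes detected on all arrays, Erbb3 and Erbb4 have 1 each, and Areg and Btc have none.

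The dissected tissue was bulk RNA, so the members were read beside marker lists of the cell types it could hold. Of 26 general epithelial genes tested, 0 were higher and 19 were lower in mutants by limma, with a median log2 difference of -2.08 against 0.016 over all genes. Cdh1 (E-cadherin) differed by -2.51 and Epcam, an epithelial surface protein, by -2.12. The mean of the list ran from -1.26 to -0.10 on mutant arrays and from 0.80 to 1.26 on wild-type arrays. Of 10 pancreatic progenitor genes 9 were lower, with a median of -2.45 and a list mean of -1.93 to -0.20 on mutant arrays and 0.99 to 1.61 on wild-type arrays, and of 12 endocrine genes 5 were lower, with a median of -1.11. In bulk samples fewer cells of a type and less RNA per cell cannot be told apart.

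The log2 difference of Erbb3, -2.36, lay within the range of the 26 epithelial genes, -2.75 to -0.14, and 8 of the 26 had a larger fall. Taken within each array against the mean of the epithelial list, Erbb3 was 0.58 lower in mutants (-0.33 to 0.38 on mutant arrays and 0.44 to 0.70 on wild-type arrays, exact permutation p = 0.0286, the smallest possible, and 0.0286 adjusted over the 8 members). With each gene taken as the mean of its probes that difference was -0.43 and no longer passed (adjusted p = 0.171). Since the list mean itself differed by -1.78, a gene without change would come out higher against it by that amount, and the other 7 members came out higher by 1.12 for Tgfa up to 2.34 for Egfr. All 8 members had an exact permutation p of 0.0286, so the adjustment left it unchanged. For these 7 it largely followed from the fall of the list, so the adjusted p of Erbb3 is no separate support. The epithelial list moved with genotype beside every one of these values, and its part in them was not tested.

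Erbb3 also marks neural crest derivatives, and genes of neural crest, glia and neurons moved as well. With Erbb3 left out, 4 of 17 such genes tested were lower and 0 higher in mutants, with a median log2 difference of -0.58. Sox10, the transcription factor of neural crest and glia, differed by -1.54 (limma adjusted p = 0.0137). The mean of the list ran from -1.91 to -1.56 on mutant arrays and from -1.37 to -1.03 on wild-type arrays, and Ret was undetected on all arrays. Against this list Erbb3 was 1.79 lower in mutants within arrays (0.48 to 1.58 on mutant arrays and 2.53 to 3.22 on wild-type arrays, exact permutation p = 0.0286). The list mean itself differed by -0.58, and the comparison contains the Erbb3 values given above, so its p-value is no separate support. The part of these cells in the Erbb3 difference was not tested.

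Markers of the surrounding tissue lay on the side of Egfr. Of 20 mesenchymal genes 3 were higher and 0 lower in mutants, with a median log2 difference of 0.59. Of 13 endothelial genes 2 were higher, with a median of 0.42, and of 12 macrophage and leukocyte genes 4 were higher, with a median of 0.65. The mesenchymal list averaged 2.10 to 2.52 on mutant arrays and 1.67 to 1.91 on wild-type arrays. The endothelial list averaged 1.23 to 1.55 and the macrophage list 1.09 to 1.63 on mutant arrays, against 0.83 to 1.05 for the endothelial and 0.57 to 0.90 for the macrophage list on wild-type arrays, and the leukocyte gene Spi1 was undetected on all arrays. Of 9 mesothelial genes 2 were higher and 0 lower, with a median of 0.80. Among 11 erythroid genes 0 passed in either direction, with a median of 0.44. The mesothelial list averaged -0.57 to -0.04 on mutant and -1.28 to -0.87 on wild-type arrays. The erythroid list averaged 1.47 to 1.73 on mutant and 0.84 to 1.42 on wild-type arrays. Mutant replicate 3, the array with the highest Egfr, also had the highest mesenchymal, endothelial and macrophage means. Among the mutant arrays it had the lowest mesothelial (-0.57) and erythroid (1.47) means. It was also the array with the fewest spots well above background (59.4%), so this match on 1 array decides nothing. The part of these cells in the Egfr values was not tested.

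**Figure D4:**
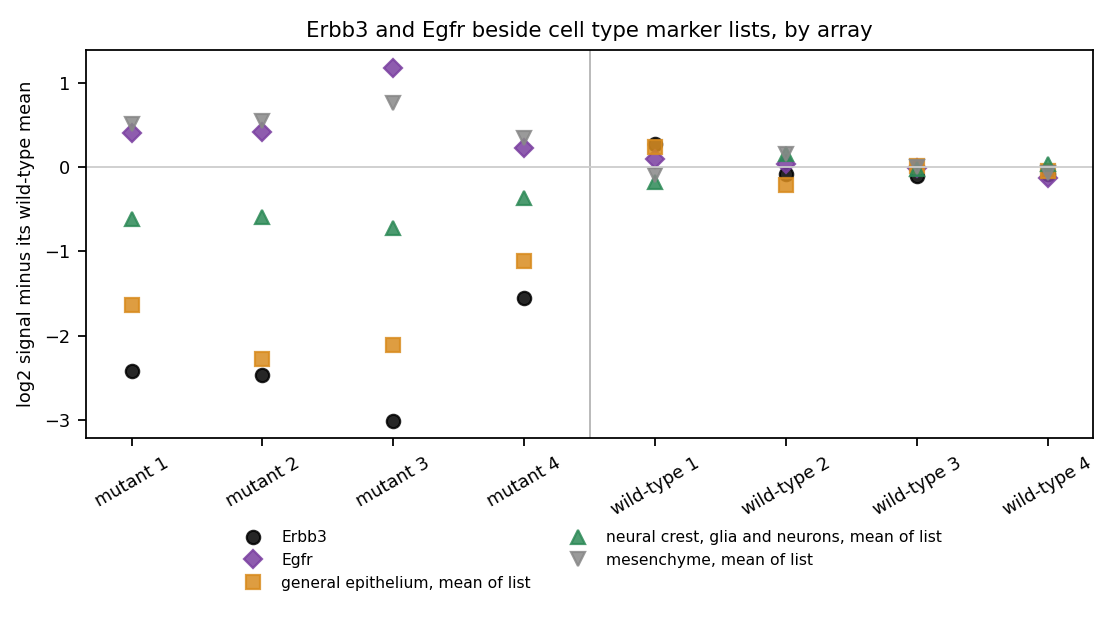
Log2 signal of Erbb3 and Egfr and the mean of 3 marker lists on each array, each minus its own wild-type mean. On the mutant arrays Erbb3 and the epithelial list lie far below 0, the neural crest list lies a little below it, and Egfr and the mesenchymal list lie above it; on the wild-type arrays all stay close to 0.

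For each receptor the 3 genes of most similar pattern were taken, by the root mean square distance between centred log2 values over the 8 arrays, among 14532 genes. For Erbb3 they were Dennd2d at 0.139, St14 at 0.145 and Ell3 at 0.150, with log2 differences of -2.38, -2.31 and -2.23, which the choice by pattern fixes. St14, which encodes the epithelial membrane protease matriptase, is also in the epithelial list. For Egfr the nearest were Hoxb2, Prkce and B2m at 0.068 to 0.079. For Erbb2 they were Acy3, Mapk7 and Sh3gl1, and for Erbb4 Shc2, Tor1aip2 and Spaca4.

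Other genes of the pathway were counted by role, on 5 lists with 89 genes tested. Of these 7 passed by limma, 1 higher and 6 lower in mutants, a share to be read beside the 5.37% of all genes, and the medians of the lists lay between -0.24 and 0.19. Of 5 other genes listed as EGF-family ligands, not all of which are ligands of ErbB receptors, none passed. Those with the lowest adjusted p were Nrg4, a further neuregulin, at a log2 difference of 0.40 (adjusted p = 0.489) and Cfc1, a Nodal co-receptor, at -0.27 (adjusted p = 0.664). Of 12 genes of ligand shedding and transport 1 was higher, Adam12, a membrane protease that can release ligands, at 0.78 (adjusted p = 0.0331). The difference of Adam12 lay within the range of the mesenchymal genes, -0.09 to 1.16, whose median was 0.59. The part of the mesenchymal cells in it was not tested. Adam12 lost its call without mutant replicate 1, 2 or 3 or wild-type replicate 1, 3 or 4 (adjusted p 0.0695 to 0.0980), with normexp (0.46, adjusted p = 0.0650), with quantile normalization (adjusted p = 0.0956), with median scaling (0.0879) and with no filter (0.0867). Adam17, the main sheddase of Egfr ligands, differed by 0.0006 (adjusted p = 0.999).

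Of 19 genes of receptor feedback and turnover 3 were lower and 0 higher. Rab25, a small GTPase of receptor recycling in epithelia that is also in the epithelial list, averaged -2.02 ± 0.67 in mutant and 0.40 ± 0.40 in wild-type arrays (SD, n = 4 each), a log2 difference of -2.41 (limma adjusted p = 0.00975). Muc1, an apical mucin that associates with ErbB receptors, differed by -1.71 (adjusted p = 0.0413), and Cblc, a Cbl-family ubiquitin ligase of epithelia, by -1.27 (adjusted p = 0.0238). Cblc lost its call without any one of mutant replicates 2 and 3 and wild-type replicates 1, 3 and 4 (adjusted p 0.0570 to 0.0652), and Muc1 without any one array other than mutant replicate 3 (0.0520 to 0.112). With normexp Cblc differed by -0.69 and Muc1 by -0.63, and Muc1 did not pass (adjusted p = 0.0507); in the authors' value table Cblc differed by -0.71 and Muc1 by -0.67. Muc1 also lost its call with quantile normalization (adjusted p = 0.111) and both lost theirs with no filter (0.0953 for Muc1 and 0.0603 for Cblc).

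Of 36 adaptors and cytoplasmic kinases 1 was lower and 0 higher. It was Grb7, an adaptor that binds ErbB receptors, with 2.07 ± 0.59 in mutant and 4.20 ± 0.39 in wild-type arrays (SD, n = 4 each) and a log2 difference of -2.13 (limma adjusted p = 0.0105). The other 35, among them the Ras, Raf, Erk and Akt genes, lay between -0.30 and 0.44. The differences of Grb7, Rab25, Muc1 and Cblc lay within the range of the general epithelial genes, -2.75 to -0.14, whose median was -2.08. The part of the epithelial cells in these differences was not tested.

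Of 17 transcripts that respond to Erk signalling 2 were lower and 0 higher. They were Phlda1 at a log2 difference of -0.97 (limma adjusted p = 0.0176) and Ccnd1, which encodes cyclin D1, at -0.63 (adjusted p = 0.0228). The other 15 did not pass. Of the 17 differences 11 lay below 0 and 6 above, from -0.97 to 0.39. The list mean ran from -0.52 to -0.35 on mutant arrays and from -0.21 to -0.17 on wild-type arrays. Whether Erk signalling itself differed was not tested. Phlda1 lost its call without mutant replicate 1 or wild-type replicate 1 or 4 (adjusted p 0.0516 to 0.0603), Ccnd1 without mutant replicate 1 or 2 or any wild-type array (0.0566 to 0.0749). With median scaling neither passed (Phlda1 at -0.83, adjusted p = 0.0989, and Ccnd1 at -0.49, adjusted p = 0.308), and with no filter on dim probes Ccnd1 did not (adjusted p = 0.0681).

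**Figure D5:**
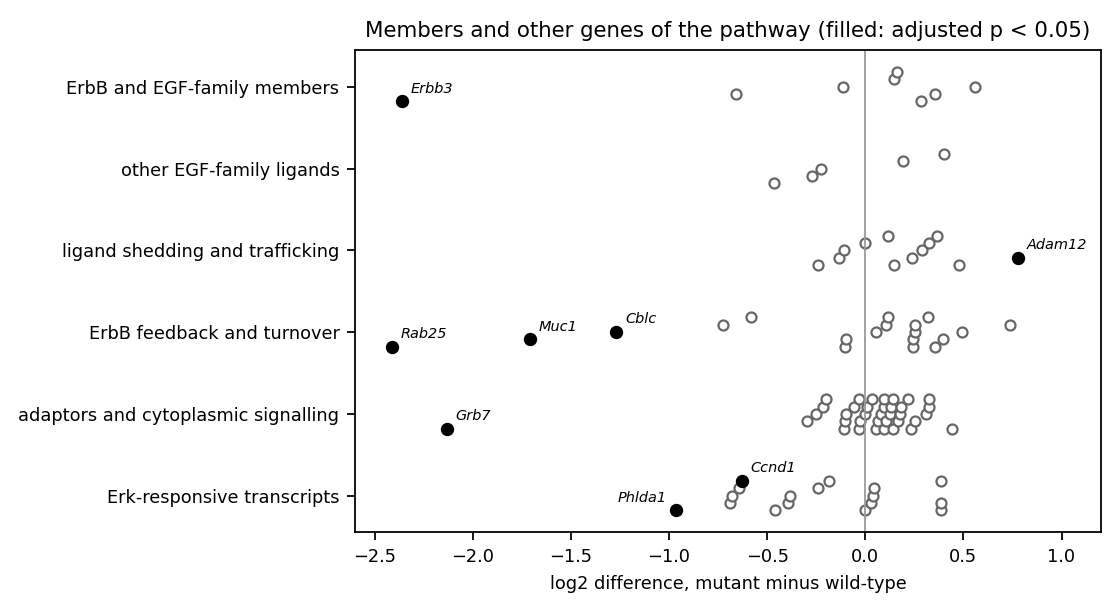
Log2 difference, mutant minus wild-type, of the 8 members tested and of 89 other genes of the pathway in 5 lists, 1 point a gene, spread vertically only for legibility. Filled, named points had a limma adjusted p under 0.05: Erbb3, Rab25, Muc1, Cblc, Grb7, Phlda1 and Ccnd1 on the lower side and Adam12 on the higher side.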

How the data were processed

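The authors' scanner output was written by Agilent Feature Extraction 9.5.3.1, per the file headers, with probe positions on mm8. Their deposited processed signal is a linear intensity, background-subtracted and detrended within each array and not normalized between arrays, and the deposited columns of mean signal and of background around a spot hold raw scan intensity. Other deposited columns, the control type and quality flags, are not measurements. The authors' value table holds linear intensity values of 33067 features with a median of 227 in every array. Its ranks follow the mean signal (rank correlation 0.999 or more), and its steps are not given in the sources used here. Per the submitters' processing notes, limma was used.

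Controls, non-uniform spots and population outliers were removed. The processed signal was put on the log2 scale, the 75th percentile of the array was subtracted, and spots of a probe were averaged. Probes well above background on at least 4 of 8 arrays were kept, and a gene was represented by its kept probe of highest mean. Genotypes were compared by limma 3.58.1 in R 4.3.3 (lmFit, then eBayes). P-values are two-sided and were adjusted by Benjamini and Hochberg over 18506 genes or 27389 probes, at a threshold of 0.05. Single values were compared by exact permutation of the arrays (70 assignments, two-sided). The scripts were tested on simulated data. Data were read and drawn with Python 3.11.15, pandas 2.3.3, numpy 2.4.6, matplotlib 3.10.9 and, in R, data.table (version 1.17.8). The number of arrays, 4 a genotype, and dim probes limit the precision.

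The members and the gene lists were chosen with earlier results of these data known. The genes named are the members, the list genes that passed the threshold (where none passed, the 2 of lowest adjusted p), Sox9, a few defining markers and the 3 genes of most similar pattern to each receptor. Adam17, Ereg, Epgn, Ret, Spi1, Pa2g4, Rps26, Pgap3 and Mien1 fall outside that rule and were chosen after their values were seen. Slide 1 held mutant replicate 3 and wild-type replicate 2, slide 2 mutant replicates 1 and 4 and wild-type replicate 3, and slide 3 mutant replicate 2 and wild-type replicates 1 and 4. Deviations of same-numbered arrays correlated at -0.35, -0.30, -0.0048 and 0.088, so no pairing by replicate number was seen. These few values cannot exclude a pairing. Alternatives were normexp background correction, quantile and median scaling, the authors' table, other filters and probe rules, slide and replicate blocks, array weights and leaving out arrays.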

Additional observations from a re-analysis of the deposited data

Results flagged for a closer look

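Of 34 groups of 4 arrays (17 tested probes in 2 genotypes), 2 held an array whose gap to its nearest neighbour took up most of the range of the group, and chance gives about 1 in 20 such groups. In Erbb3 (A_52_P432949), wild-type replicate 1 stood at 1.85 and the other wild-type arrays between 1.47 and 1.5, a gap of 0.926 of the range. Without that array the Erbb3 difference remained past the threshold. In the Egfr probe A_51_P392242, wild-type replicate 3 stood at -2.74 and the other wild-type arrays at -3.00, -3.01 and -2.97, a gap of 0.859 of the range.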

How the results depend on the processing

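With 4 arrays a genotype, and dim probes for Areg, Btc, Nrg1 and Tgfa, small differences were not detectable. Exact permutation p-values were not read with an array left out. Erbb3 kept its direction in all 21 alternatives and its call in 20 (-2.63 to -2.11, limma adjusted p 0.00109 to 0.0736; -2.63 to -2.15 without 1 array). Egfr (0.35 to 0.70), Erbb2 and Erbb4 kept theirs in all 21 and passed in none. The 994 genes called became 583 with median scaling, 419 with no filter, 1536 with slide as a random block, 1713 with array weights, 340 with the replicate block and 395 to 971 without 1 array; the cause was not tested. Of these calls 28.9% were higher in mutants at first, against 42.5% in the authors' table, 39.7% with detection on all 8 arrays, 10% with no filter and 7.94% with the replicate block. Median scaling moved the median of all genes to 0.155. Leaving out mutant replicate 1 and wild-type replicate 3, which was added after seeing the data, left 6 genes, 0 members (Erbb3 at -2.38, adjusted p = 0.0736), 0 member probes and 0 pathway genes called. The 1 member called became 2 with slide as a fixed block, through Tgfa. The 2 member probes called became 1 with normexp, the authors' table, no filter and the replicate block, and 1 to 2 without 1 array; with array weights they were 3, the first Erbb3 probe and the Egfr probes A_52_P674338 and A_51_P392242, while the second Erbb3 probe lost its call. The 7 pathway genes called became 4 with median scaling, 11 in the authors' table, 3 with no filter, 2 with the replicate block, 13 with array weights and 2 to 7 without 1 array. Under the replicate block Sox9 (adjusted p = 0.0695), Cblc (0.0572), Muc1 (0.0668), Adam12 (0.150), Ccnd1 (0.136) and Phlda1 (0.0691) also lost their calls, while Erbb3, Rab25 and Grb7 kept theirs. Differences near 0 turned sign: Nrg1 and its probe A_52_P369769 (0.017 with quantile normalization, 0.025 with median scaling, -0.35 to 0.13 without 1 array, 0.21 without both arrays), the Nrg1 probe A_52_P369761 (0.039 in the authors' table, -0.44 to 0.047 without 1 array, 0.18 without both arrays), Egf and its probe A_52_P38627 (-0.075 to 0.30 without 1 array) and the Erbb2 probe A_51_P216179 (-0.023 to 0.17 without 1 array).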

Other observations

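The genes that flank Erbb3 and Erbb2 in RefSeq order (GRCm38.p6) did not pass the threshold. Pa2g4, which encodes the Erbb3-binding protein Ebp1 and lies next to Erbb3, averaged 1.40 in mutant and 1.59 in wild-type arrays, a log2 difference of -0.18 (limma adjusted p = 0.646). Rps26, a ribosomal protein gene on the other side, averaged 6.34 in mutant and 6.17 in wild-type arrays, a difference of 0.17 (adjusted p = 0.781). Of the neighbours of Erbb2, Pgap3 differed by -0.13 (adjusted p = 0.692) and Mien1 by -0.34 (adjusted p = 0.174). The mean of 3 Y-linked genes lay between -1.88 and -0.18 on the 4 mutant arrays and at -6.44, -5.19, -1.13 and -6.58 on wild-type replicates 1 to 4, so the embryos' sex ran in part with genotype, and its part in the members' values was not tested.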
